A study of Mus musculus with 8 samples.

Results

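The circadian clock genes described here are 10 of the 23100 loci in the authors' gene table, chosen by name from the molecular clock with earlier results of these data known. They are the activator genes Arntl, Clock and Npas2, the repressor genes Per1, Per2, Per3 and Cry2, the nuclear receptor genes Nr1d1 and Nr1d2, and the output factor gene Dbp. The RNA came from cardiac ventricles, without atria, of 4 DKO and 4 Ctrl mice aged 4.5 months. DKO mice were Sox5fl/fl and Sox6fl/fl with aMHC-Cre, a Cre recombinase under a promoter active in cardiomyocytes. Which cells lost Sox5 and Sox6 is not measured in these tables. Ctrl mice carried the same floxed Sox5 and Sox6 alleles without Cre, so Cre itself and the loss of its targets cannot be told apart. The series title names pressure overload, no operation is given in the labels of these animals, and the time of day at which hearts were taken is not given.

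The clock is a loop of transcription factors that runs in nearly every cell, cardiomyocytes included, with a period of about a day. ARNTL pairs with CLOCK or its relative NPAS2 and switches on genes with an E box, among them the Per, Cry, Nr1d and Dbp genes. PER and CRY proteins then return to the nucleus and block the pair, while the receptors encoded by Nr1d1 and Nr1d2 (REV-ERB alpha and beta) repress Arntl, so that Arntl RNA peaks when the RNA of Dbp and the Nr1d and Per genes is low. In the heart the clock times metabolic and ion channel genes.

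All values are the authors' FPKM, a level scaled to transcript length and library size, with 1 value per genotype pooled over its animals. No value has an error between animals, and each test named is the authors' Cuffdiff test, in which a gene was called when its q, the p adjusted over all tested genes, did not exceed 0.05. The authors' deposited table called 893 of the 12133 tested genes, or 7.36%, with 4.30% higher and 3.06% lower in DKO. Sox6 was at 1.69 FPKM in DKO and 3.39 FPKM in Ctrl, with q = 0.00158 in the authors' deposited table, and Sox5 was at 0.497 FPKM in DKO and 0.369 FPKM in Ctrl and had no test. All 10 cardiomyocyte markers were present, led by Myl2 at 17014 FPKM in DKO and 20639 FPKM in Ctrl and Mb at 14207 FPKM in DKO and 17576 FPKM in Ctrl.

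Of the 10 clock genes 9 were tested as single genes and Per3 only as a locus joined with another gene. Per2 alone was called, at 1.43-fold higher in DKO. A single call in 10 genes is near the background of 7.36% of all tested genes. The log2 ratio of DKO over Ctrl was above 0 in 6 clock genes and below 0 in 4, with a median of 0.08, beside a median of -0.0042 over all tested genes. The 5th and 95th percentiles of the log2 ratio over all tested genes were -0.31 and 0.44. Per2 lay above that range and Arntl below it, and the other 8 clock genes lay inside it. An unadjusted p of at most 0.05 stood beside 3 clock genes in the authors' deposited table, Per2 and Cry2 with higher and Arntl with lower levels in DKO, and beside 16.5% of all tested genes.

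The order of the 10 genes by level was the same in DKO and Ctrl ventricles. Nr1d1 was highest, then Dbp, Nr1d2, Per1, Cry2, Per3, Clock, Per2 and Arntl, and Npas2 was lowest. For Per3 this order uses the sum of its own isoforms, because its locus also holds another gene. With 1 pooled value per genotype, the spread between animals that would separate neighbours in this order is not in these values.

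**Figure D1:**
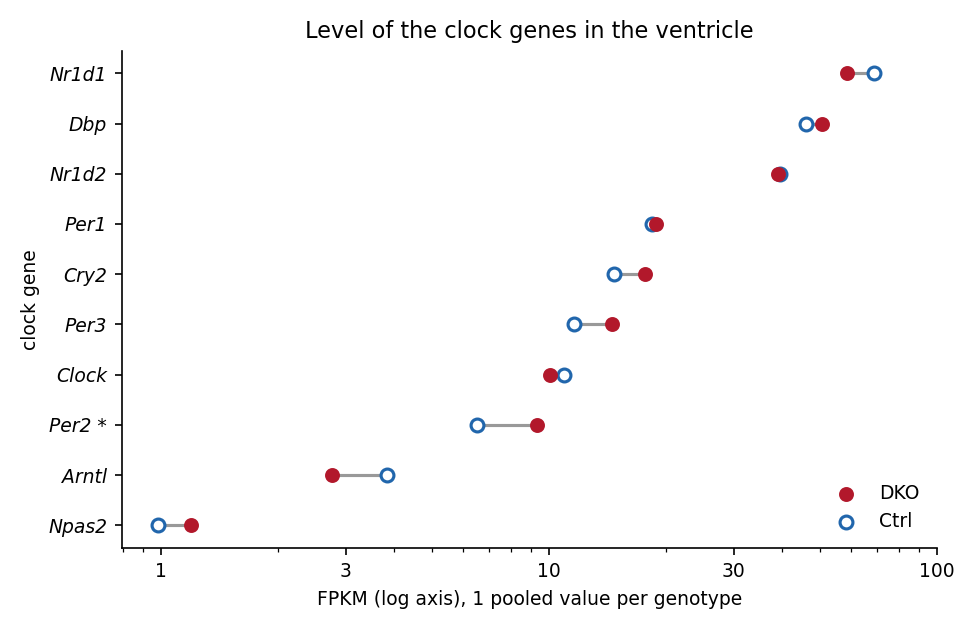
FPKM of the 10 clock genes on a log axis, with filled red points for DKO and open blue points for Ctrl, 1 pooled value each, and an asterisk for a called gene. Per3 is the sum of its isoforms. Per2 lies at 9.34 FPKM in DKO and 6.52 FPKM in Ctrl, and the order of the genes is the same in both genotypes.

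Of the activators, Arntl encodes the partner without which the clock does not run. It was at 2.76 FPKM in DKO and 3.83 FPKM in Ctrl, 1.39-fold lower, with a log2 ratio of -0.47. Its p of 0.00725 gave q = 0.0818 in the authors' deposited table, so it was not called. Both of its isoforms were lower in level in DKO. The isoform of 2908 bases was at 2.52 FPKM in DKO and 2.95 FPKM in Ctrl, with a log2 ratio of -0.22, smaller than that of the gene, and p = 0.506 and q = 0.891 in the authors' deposited isoform table. The shorter isoform of 2615 bases, at 0.242 FPKM in DKO and 0.885 FPKM in Ctrl, had no test and held 8.74% of the Arntl level in DKO and 23.1% in Ctrl. In mm9, the build of the files, the Arntl locus is on chromosome 7 at 120350979 to 120457640.

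Clock, the usual partner of ARNTL, was at 10.1 FPKM in DKO and 10.9 FPKM in Ctrl, with a log2 ratio of -0.12 and q = 0.676 in the authors' deposited table. Npas2, its relative, was the lowest of the 10 genes, at 1.20 FPKM in DKO and 0.981 FPKM in Ctrl, and 97.7% of tested genes had a higher level in Ctrl. Its log2 ratio was 0.29 with q = 0.519 in the authors' deposited table. No activator gene was called, and the log2 ratios of the 3 genes were not all of 1 sign. The Clock transcripts began at 3 start sites with a level each. The start site of the 7478-base reference transcript was at 1.49 FPKM in DKO and 0.990 FPKM in Ctrl, and the other start sites were at 5.17 and 3.41 FPKM in DKO and 5.87 and 4.07 FPKM in Ctrl. None of these Clock start sites was called, where 4.94% of all tested start sites were, and the one with the reference transcript ran against the direction of the gene total.

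The Per and Cry genes encode the repressors that close the loop. Per1, Per2, Per3 and Cry2 had log2 ratios above 0, with a median of 0.20 with the joined Per3 locus and 0.29 with Per3 from its own isoforms. Cry1, the remaining paralog, had a log2 ratio of -0.13, and of these genes only Per2 was called. Per2, a repressor whose loss alone weakens rhythms in mice, was at 9.34 FPKM in DKO and 6.52 FPKM in Ctrl. Its log2 ratio of 0.52 had q = 0.00158 in the authors' deposited table, and 474 of the 12133 tested genes had a larger log2 ratio. The table lists 1 Per2 isoform, of 5837 bases, which matches the reference transcript. It repeats the FPKM and p of the gene, so its call, with q = 0.00312 in the authors' deposited isoform table, is no separate result. There, 3.02% of 18490 tested isoforms were called, and Per2 held the only called isoform among the 18 tested isoforms of clock genes. The Per2 locus, on chromosome 1 at 93312559 to 93355905 in mm9, overlaps no other listed locus.

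Per1, a paralog that responds to light, stress hormones and cAMP, had nearly the same total in both genotypes, at 18.9 FPKM in DKO and 18.5 FPKM in Ctrl. Its q was 0.959 in the authors' deposited table. Under that total, its start sites went opposite ways in level. The reference transcript of 4660 bases was at 12.9 FPKM in DKO and 7.13 FPKM in Ctrl, and held 68.5% of the Per1 level in DKO and 38.6% in Ctrl. A variant of 4645 bases from another start site was at 5.94 FPKM in DKO and 10.5 FPKM in Ctrl. The transcript from the downstream start, also of 4645 bases, was at 0.00775 FPKM in DKO and 0.858 FPKM in Ctrl and had no test. Neither tested start site was called, with unadjusted p-values of 0.0822 and 0.282 and q-values of 0.476 and 0.772 in the authors' deposited table of start sites. Cuffdiff has to assign reads that several overlapping transcripts could give, so the level of one Per1 isoform is less certain than the Per1 total.

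The promoters of Per1 at both annotated starts are shown because Per1 transcripts began at several start sites. The transcript of the downstream start held 0.0411% of the Per1 level in DKO and 4.65% in Ctrl. The start of the 4645-base variant, which held 31.5% in DKO and 56.7% in Ctrl, was not matched to a window. The sequences are from RefSeq on build GRCm38.p6 and run from 250 bases before to 50 bases after the start, with any motif match in capitals. The upstream window, chr11:69098699-69098998 on the plus strand, lies at the annotated start of the reference transcript that the 4660-base isoform matches. It holds an E box, CACGTG, that begins 166 bases before the start. The downstream window, chr11:69099902-69100201 on the plus strand, lies at the annotated start of the transcript that was at 0.00775 FPKM in DKO, and no searched motif matched in it.
Per1, upstream start: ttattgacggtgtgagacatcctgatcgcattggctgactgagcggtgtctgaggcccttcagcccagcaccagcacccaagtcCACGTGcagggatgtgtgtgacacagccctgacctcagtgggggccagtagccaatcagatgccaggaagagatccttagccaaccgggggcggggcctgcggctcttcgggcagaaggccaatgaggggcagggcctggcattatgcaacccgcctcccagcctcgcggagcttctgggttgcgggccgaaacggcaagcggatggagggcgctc
Per1, downstream start: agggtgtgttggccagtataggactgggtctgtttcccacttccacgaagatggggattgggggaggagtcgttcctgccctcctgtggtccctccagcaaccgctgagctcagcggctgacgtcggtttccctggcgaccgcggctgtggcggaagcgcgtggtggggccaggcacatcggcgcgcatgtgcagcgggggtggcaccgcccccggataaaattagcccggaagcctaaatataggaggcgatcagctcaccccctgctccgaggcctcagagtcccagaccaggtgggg

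Per3, the third Per paralog, shares its listed locus with Vamp3, a vesicle fusion gene, so the gene table gives one value for both, 58.5 FPKM in DKO and 53.4 FPKM in Ctrl. Of that value Vamp3 supplied 43.9 FPKM in DKO and 41.7 FPKM in Ctrl. The 6 Per3 isoforms alone summed to 14.5 FPKM in DKO and 11.6 FPKM in Ctrl, 1.25-fold higher. The log2 ratio was 0.32 from the Per3 isoforms and 0.13 from the shared locus, whose q was 0.764 in the authors' deposited table. No test of the summed isoforms exists in the deposited tables. The start site with 4 Per3 isoforms was at 8.96 FPKM in DKO and 6.48 FPKM in Ctrl, with an unadjusted p of 0.0838 and q = 0.480 in the authors' deposited table. The 2 most abundant isoforms, of 5953 and 5211 bases, were at 5.44 and 5.42 FPKM in DKO and 4.82 and 4.01 FPKM in Ctrl. Of the 6 isoforms 5 were higher in level in DKO, and the one of 7262 bases was at 0.167 FPKM in DKO and 1.15 FPKM in Ctrl.

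Cry2 encodes a cryptochrome, the partner of PER proteins in repression. It was at 17.7 FPKM in DKO and 14.8 FPKM in Ctrl, 1.20-fold higher, with a log2 ratio of 0.26. Its p of 0.011 gave q = 0.110 in the authors' deposited table, so it was not called. The long isoform of 4001 bases held 95.8% of the Cry2 level in DKO and 96.4% in Ctrl, and the isoform of 2193 bases was at 0.736 FPKM in DKO and 0.526 FPKM in Ctrl. The Cry2 locus overlaps that of D930015M05Rik, which was at 0.717 FPKM in DKO and 0.765 FPKM in Ctrl and had no test. The paralog Cry1, named after its values were seen, was at 4.72 FPKM in DKO and 5.16 FPKM in Ctrl, with a log2 ratio of -0.13 and q = 0.774 in the authors' deposited table.

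**Figure D2:**
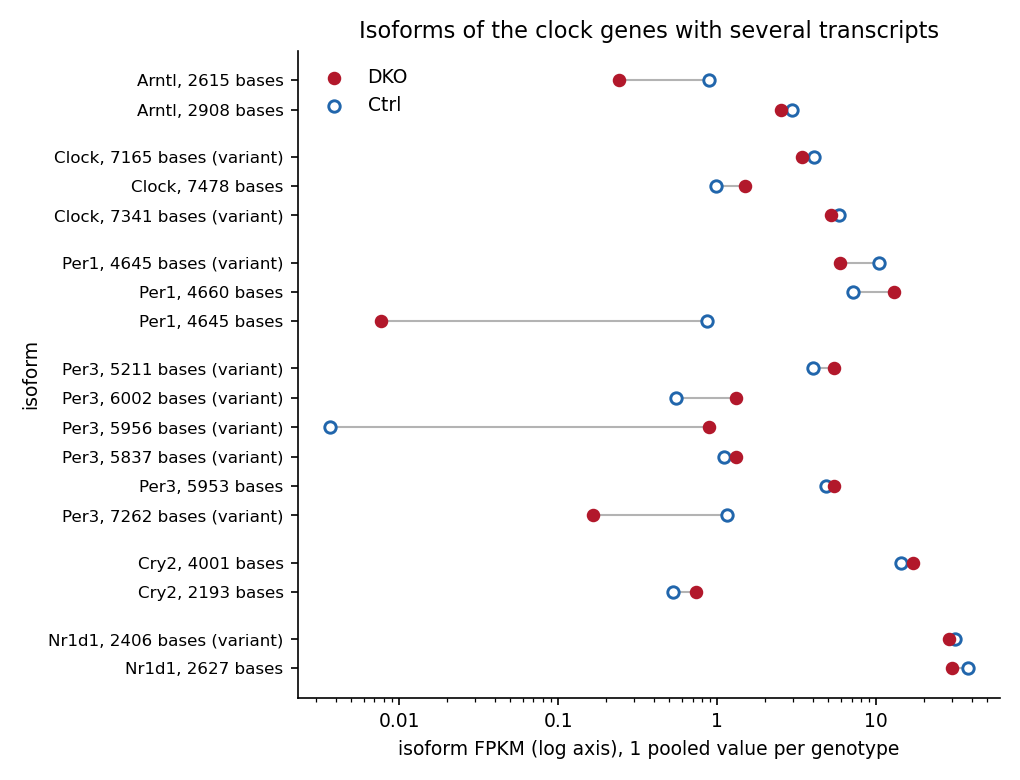
Isoform FPKM on a log axis for the 6 clock genes with more than 1 listed isoform, labelled by transcript length, with filled red points for DKO and open blue points for Ctrl, 1 pooled value each. "Variant" marks a transcript that shares splice junctions with the reference transcript without matching it. The reference transcript of Per1 is at 12.9 FPKM in DKO and 7.13 FPKM in Ctrl and its 4645-base variant at 5.94 FPKM in DKO and 10.5 FPKM in Ctrl. No isoform drawn here was called.

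The REV-ERB receptors repress Arntl and are themselves switched on by the activators. Nr1d1, the highest of the clock genes, was at 58.8 FPKM in DKO and 68.9 FPKM in Ctrl, 1.17-fold lower, with q = 0.368 in the authors' deposited table. Its isoforms of 2627 and 2406 bases were at 30.1 and 28.6 FPKM in DKO and 37.7 and 31.2 FPKM in Ctrl. Nr1d2, its paralog, was at 38.9 FPKM in DKO and 39.4 FPKM in Ctrl, with q = 0.977 in the authors' deposited table. Neither receptor gene was called, and Nr1d2 had the log2 ratio nearest to 0 of the 10 genes, at -0.02. Nr1d1 overlaps the thyroid hormone receptor gene Thra, which lies on the opposite strand and was at 44.9 FPKM in DKO and 52.0 FPKM in Ctrl, with a log2 ratio of -0.21 beside -0.23 for Nr1d1. The labels do not say that counting used the strand, so reads from the shared stretch of Nr1d1 and Thra cannot be told apart.

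Dbp encodes a PAR bZIP factor that carries the rhythm to genes with a D box. It was at 50.7 FPKM in DKO and 46.1 FPKM in Ctrl, 1.10-fold higher, with a log2 ratio of 0.14 and q = 0.846 in the authors' deposited table. Its single listed isoform, of 1678 bases, matches the reference transcript. Dbp overlaps the sphingosine kinase gene Sphk2 on the opposite strand, which was at 17.9 FPKM in DKO and 16.8 FPKM in Ctrl, with a log2 ratio of 0.09. As for Nr1d1 and Thra, reads from the stretch that Dbp and Sphk2 share cannot be told apart.

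**Figure D3:**
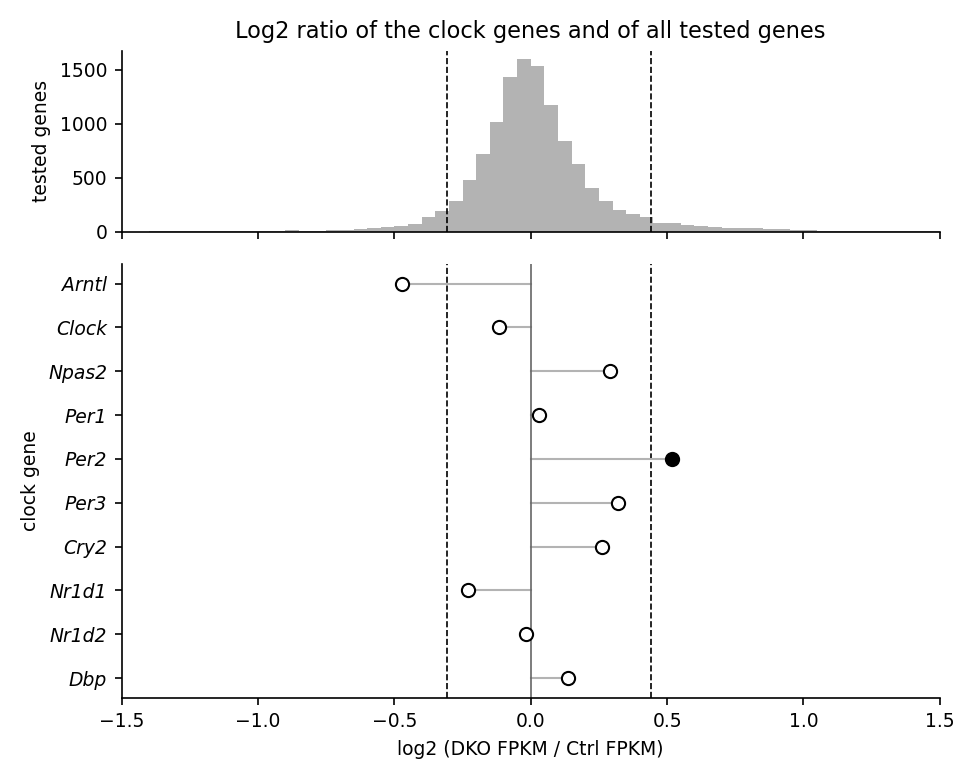
Log2 ratio of DKO over Ctrl for the 10 clock genes (lower panel, filled where called, Per3 from its isoforms) under the same ratio for all tested genes within 1.5 of 0 (upper panel, genes per bin). Dashed lines mark the 5th and 95th percentiles of all tested genes, -0.31 and 0.44. Per2 lies beyond the upper line at 0.52 and Arntl beyond the lower line at -0.47.

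Promoter windows were found for 9 of the 10 genes, all but Per2, as 13 windows of 300 bases. Both strands were searched for the E box (CACGTG), the D box (TTATGTAA or TTACGTAA), the core of the element bound by REV-ERB receptors (TAGGTCA), the cAMP response element (TGACGTCA) and paired heat shock elements (GAANNTTC or TTCNNGAA). The E box stood in 1 clock gene window, the upstream window of Per1, and in 7.15% of all 32851 windows. The D box stood in 1 clock gene window, that of Per3, and in 1.06% of all windows, and the REV-ERB core stood in 1, that of Arntl, and in 2.61% of all windows. The cAMP response element and the heat shock pairs matched no clock gene window, and 1.79%, 7.86% and 8.52% of all windows. Forms other than the letters given were not searched, so a window without a match can still hold a variant. The downstream Per1 window holds tgacgtcg, which is close to TGACGTCA without matching it. No matches overlapped. Such a match describes letters in a short window and does not show a bound site.

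The Arntl and Per3 windows are shown because they carry the motifs through which the loop is known to act on these genes. Arntl has windows at 2 starts 46 bases apart. The one shown, chr7:113207261-113207560 on the plus strand, is nearest to the start of the untested 2615-base isoform, with its core motif beginning 30 bases after the window's start site. The window of the more abundant 2908-base isoform ends before the motif and had no match to the searched letters. Near its end that window holds taggtta, which is close to the searched TAGGTCA without matching it. The window shown holds taggtta too. Other forms of the element were not searched, and the authors' start site groups place both isoforms in the same group. The Per3 window is chr4:151044616-151044915 on the minus strand, with D boxes beginning 205 and 158 bases before the start. Capitals mark the motifs.
Arntl: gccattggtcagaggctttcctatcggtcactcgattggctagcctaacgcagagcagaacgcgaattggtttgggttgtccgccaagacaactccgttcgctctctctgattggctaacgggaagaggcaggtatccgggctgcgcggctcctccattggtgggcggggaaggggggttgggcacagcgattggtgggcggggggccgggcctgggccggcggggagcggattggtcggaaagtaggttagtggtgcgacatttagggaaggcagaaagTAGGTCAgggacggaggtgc
Per3: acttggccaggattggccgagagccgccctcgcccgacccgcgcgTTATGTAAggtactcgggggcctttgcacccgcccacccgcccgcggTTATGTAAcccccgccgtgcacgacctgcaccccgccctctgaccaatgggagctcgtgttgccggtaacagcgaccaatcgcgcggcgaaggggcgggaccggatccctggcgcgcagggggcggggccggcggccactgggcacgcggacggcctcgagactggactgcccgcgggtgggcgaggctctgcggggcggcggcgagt

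Genes that work with the clock were read from 4 further lists, of which 53 genes were tested. Of these 1 was called higher and 4 lower in DKO, or 9.43%, beside 7.36% of all tested genes. All 5 were output genes. The median log2 ratio over the 53 genes was -0.02.

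Of the further loop factors none of 9 tested was called in the authors' deposited table, and their median log2 ratio was 0.06. The most abundant were Tef, a relative of Dbp, at 63.8 FPKM in DKO and 62.0 FPKM in Ctrl, and Bhlhe40, a repressor of E box genes, at 39.1 FPKM in DKO and 35.8 FPKM in Ctrl. Bhlhe41, the relative of Bhlhe40, was at 22.6 FPKM in DKO and 17.8 FPKM in Ctrl, with a log2 ratio of 0.34 and q = 0.0542 in the authors' deposited table, just outside the threshold. At an unadjusted p of at most 0.05, 8 of the 53 genes of the 4 lists passed, or 15.1%, beside 16.5% of all tested genes.

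Enzymes that modify or degrade clock proteins included none called of 14 tested, with a median log2 ratio of -0.05 and a range of -0.13 to 0.06. The most abundant were the phosphatase subunit genes Ppp1ca, at 195 FPKM in DKO and 188 FPKM in Ctrl, and Ppp1cb, at 160 FPKM in DKO and 164 FPKM in Ctrl. Csnk2b, a casein kinase subunit gene, was at 99.1 FPKM in DKO and 104 FPKM in Ctrl, and the deubiquitinase gene Usp2 at 51.1 FPKM in DKO and 52.4 FPKM in Ctrl. Of the cofactors none of 14 tested was called, with a median log2 ratio of -0.02. Among them Ncor1 and Hdac3, which encode the corepressor that REV-ERB recruits, were at 25.0 and 33.8 FPKM in DKO and 27.1 and 37.5 FPKM in Ctrl. Ddb1, part of a ubiquitin ligase, was at 79.6 FPKM in DKO and 75.6 FPKM in Ctrl, and the splicing factor gene Sfpq at 39.8 FPKM in DKO and 42.1 FPKM in Ctrl.

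Of the clock-controlled output genes 1 of 16 tested was called higher and 4 lower in DKO, beside 4.30% higher and 3.06% lower over all tested genes, with a median log2 ratio of 0.01. The higher one was Pdk4, a kinase that holds back glucose oxidation, at 249 FPKM in DKO and 197 FPKM in Ctrl, with q = 0.0309 in the authors' deposited table. Of the lower ones, Kcnd2, a potassium channel gene, was at 5.58 FPKM in DKO and 9.09 FPKM in Ctrl. Klf15, a factor that links the clock to cardiac repolarization, was at 24.0 FPKM in DKO and 33.4 FPKM in Ctrl. The others were Pik3r1, a regulatory subunit of PI3 kinase (27.5 FPKM in DKO and 35.6 FPKM in Ctrl), and Klf9, a transcription factor gene (39.9 FPKM in DKO and 50.8 FPKM in Ctrl). The q-value in the authors' deposited table was 0.00158 for Kcnd2, Klf15 and Pik3r1 and 0.00517 for Klf9. Kcnip2, the channel subunit gene through which Klf15 is known to act on Kcnd channels, was at 174 FPKM in DKO and 187 FPKM in Ctrl and was not called, nor was the lipid synthesis gene Dgat2 (136 FPKM in DKO and 143 FPKM in Ctrl). The output list therefore held called genes in both directions.

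Per genes are also induced outside the loop, by glucocorticoids, cAMP signaling and heat shock factor, and genes of these responses were read beside Per2. These lists were chosen with earlier results of these data known, which can raise their share of called genes. Of the 33 genes tested in the 3 lists, 10 were called higher and 3 lower in DKO, or 39.4%, beside 7.36% of all tested genes. Their q-values ran from 0.00158 to 0.0453 in the authors' deposited table. Of the 10 heat shock factor targets 8 had log2 ratios above 0, with a median of 0.40 over the list. Beside 4.30% of all tested genes, 6 of the 10 were called higher. They were Hsph1 (48.1 FPKM in DKO and 28.4 FPKM in Ctrl), Hsp90aa1 (29.7 FPKM in DKO and 19.5 FPKM in Ctrl), Dnajb1 (29.0 FPKM in DKO and 20.3 FPKM in Ctrl), Hspb1 (196 FPKM in DKO and 162 FPKM in Ctrl) and the near-identical copies Hspa1a (10.7 FPKM in DKO and 1.99 FPKM in Ctrl) and Hspa1b (11.0 FPKM in DKO and 1.54 FPKM in Ctrl), whose separate values are uncertain. Of the 12 CREB and serum-induced genes 11 had log2 ratios above 0, with a median of 0.21 over the list. Called higher were 3 of the 12, namely Nr4a1 (57.7 FPKM in DKO and 29.4 FPKM in Ctrl), Nr4a3 (3.49 FPKM in DKO and 1.68 FPKM in Ctrl) and Sik1 (21.1 FPKM in DKO and 14.0 FPKM in Ctrl).

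Glucocorticoid-induced genes had calls in both directions, with 1 of 12 higher and 3 lower, beside 4.30% and 3.06% of all tested genes, and a median log2 ratio of 0.02. Mt2, a metallothionein gene, was higher, at 70.0 FPKM in DKO and 28.7 FPKM in Ctrl. Ddit4, an inhibitor of mTOR signaling, was lower, at 20.3 FPKM in DKO and 33.7 FPKM in Ctrl, as were the transcription factor gene Zbtb16, at 14.5 FPKM in DKO and 19.2 FPKM in Ctrl, and Klf9, which stands in the output list too. Per1, which glucocorticoids and cAMP also induce, was not called as a total, and its start sites went opposite ways in level. The part of these responses in the Per1 and Per2 values was not tested.

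**Figure D4:**
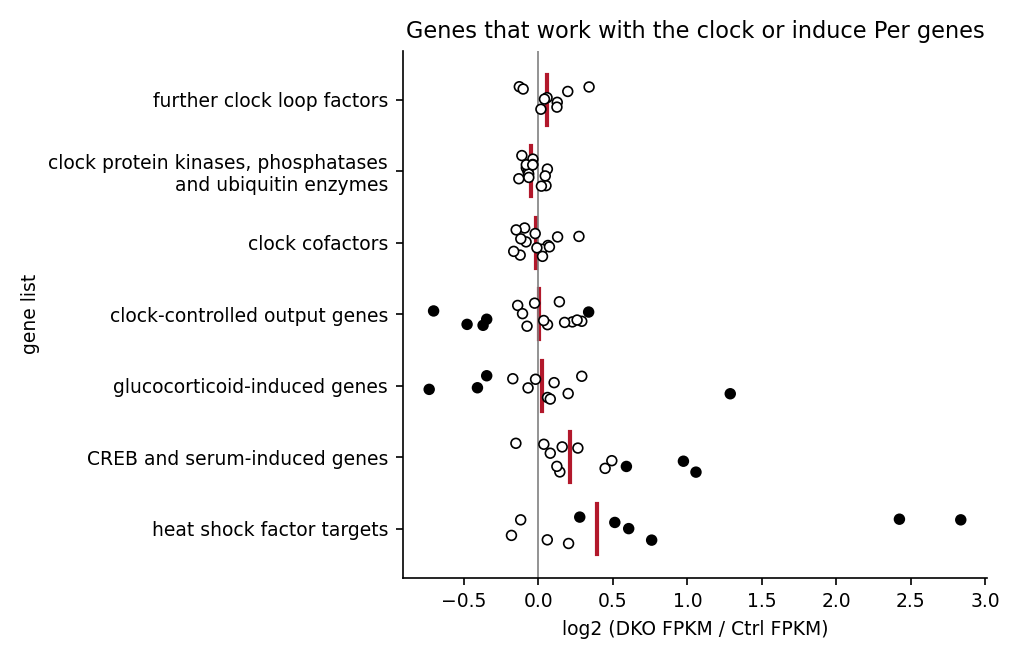
Log2 ratio of DKO over Ctrl for the tested genes of the 4 lists that work with the clock and the 3 lists of inducing responses, filled where called, with a red bar at the median of each list. Vertical scatter within a list has no meaning. The lists of loop factors, enzymes and cofactors hold no called gene, and 6 of the 10 heat shock factor targets were called higher.

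Whole ventricle RNA mixes cell types, and fewer cells of a type and less RNA per cell cannot be told apart in it. Fibroblast markers were called higher in 7 of 10 genes, with a summed level of 768 FPKM in DKO and 585 FPKM in Ctrl, and macrophage markers in 9 of 10, with 420 FPKM in DKO and 272 FPKM in Ctrl. Over all tested genes 4.30% were called higher. Cardiomyocyte markers had no call in 10 genes, log2 ratios below 0 in all 10, and a summed level of 78708 FPKM in DKO and 92623 FPKM in Ctrl. Endothelial markers had no call in 10 genes, with 515 FPKM in DKO and 548 FPKM in Ctrl. The most abundant genes weigh most in each summed level. The median log2 ratio was 0.39 for fibroblast, 0.55 for macrophage, -0.24 for cardiomyocyte and -0.07 for endothelial markers. No gene of these lists was listed at 0. The part of these markers in the Per2 and Arntl values was not tested.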

How the data were processed

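Per the labels' protocols, ventricular RNA was made into single-end libraries with an Illumina TruSeq kit. The submitters' processing notes name TopHat2 2.0.9, Cufflinks 2.1.1, Cuffdiff 2.1.1 and the build mm9, without annotation or settings. The authors' FPKM values, per the file headers, are 1 per genotype for each gene, isoform, start site group and coding sequence. Each p-value and q-value is the authors' own from Cuffdiff, per the file headers. Benjamini-Hochberg adjustment over 12133 genes gave the deposited q-values to within 5.18e-07, and 385 genes share the smallest p, 5e-05, so q does not rank those genes. Depth is unknown here, so no interval was computed.

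Of the 5 tables deposited, 4 were used, and the fifth repeats part of the gene table. Log2 ratios were recomputed as DKO over Ctrl. Starts count from 1. The clock genes and all lists were chosen with earlier results of these data known. Named genes were all clock genes, every called gene of the other lists, and the 4 most abundant tested genes of each list that works with the clock. Some genes that this rule takes are not reported here. Of the cell type lists only the 2 most abundant cardiomyocyte markers are named. Counting was tested on simulated data. Alternatives covered thresholds, pseudocounts, scaling and feature levels. Promoter starts were matched through GENCODE on GRCm38. Python 3.11.15, pandas 2.3.3 and matplotlib 3.10.9 were used.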

Additional observations from a re-analysis of the deposited data

How the results depend on the processing

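Per2 kept its call at q thresholds of 0.01 and 0.1, with a fold of at least 1.3 and at a mean FPKM of at least 1. It was also called in the isoform, start site and coding sequence tables. With 1 listed isoform, its log2 ratio in those tables is the gene value of 0.52 again, so its direction there could not differ. With a q of at most 0.1 the called clock genes numbered 2 in place of 1, the second being Arntl, and with an unadjusted p of at most 0.05 they numbered 3. By that p, 2 isoforms and 3 start site groups of clock genes passed in place of 1 each. Of the 70 alternative log2 ratios of the 10 genes, 69 kept the direction. Many of them could not reverse. A pseudocount cannot change the sign, and a gene with 1 listed isoform has the same value at each feature level. Arntl was at -0.47 from the gene and -0.22 from its main isoform, and Per1 at 0.03 from the gene and 0.86 from its main isoform. Clock alone changed direction, at 0.59 from its coding sequence, which is listed for the reference transcript alone. The genes that work with the clock numbered 2 called, Klf15 and Kcnd2, with a fold of at least 1.3, in place of 5. Over all genes the 893 calls became 524 at a q of at most 0.01 and 552 from isoforms. No paired analysis was possible because the tables hold 1 pooled value per genotype, and no animal could be left out for the same reason. Low levels limit Npas2 and the untested isoforms of Arntl, Per1 and Per3, and depth is unknown.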

Other observations

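Ratios between clock genes, chosen after their values were seen, compare Arntl with other clock genes inside each genotype. The FPKM of Per2 over that of Arntl was 3.38 in DKO and 1.70 in Ctrl. The FPKM of Cry2 over that of Arntl was 6.40 in DKO and 3.85 in Ctrl, and that of Dbp over Arntl was 18.3 in DKO and 12.0 in Ctrl. That of Nr1d1 over Arntl was 21.3 in DKO and 18.0 in Ctrl, and that of Clock over Arntl was 3.64 in DKO and 2.85 in Ctrl. The FPKM of Per2 over that of Per1 was 0.495 in DKO and 0.353 in Ctrl. Lower in DKO were the ratio of Clock over Npas2, at 8.40 in DKO and 11.1 in Ctrl, and of Nr1d1 over Nr1d2, at 1.51 in DKO and 1.75 in Ctrl. These ratios come from 1 pooled value per genotype and have no error between animals and no test. All ratios over Arntl share its value. Arntl had the lowest log2 ratio of the clock genes and Per2 the highest. Each ratio over Arntl, and that of Per2 over Per1, therefore had to be higher in DKO. These ratios repeat the Arntl and Per2 values and are no separate result.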
